A study of Mus musculus with 62 samples.

Results

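The cells described here are the 12 with the highest and the 12 with the lowest level of Bnip3, out of 50 single cells that passed a check on spike-in content and 62 sequenced in all. A cell was kept when synthetic ERCC spike-in RNAs took under 20% of its counts. Counts of the remaining gene rows were scaled to CPM over the gene rows, the kept cells were ranked by Bnip3 CPM, and both ends of the ranking were compared across all other genes. The 26 kept cells between these ends served as cells that the split did not use. The members were chosen by the measured Bnip3 level itself, so Bnip3 values are given as a description.

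All cells came from 1 untreated adherent culture of the mouse pancreatic cancer line KPC1199-EGFP (C57BL/6 background, EGFP expression) at passage 9. The culture medium was DMEM with 10% FBS and antibiotics, and the labels name no hypoxic, starved or drug-treated sample. Cells were trypsinised and captured on a Fluidigm C1 chip, and the amplified cDNA was made into Nextera XT libraries. The culture is a control, at the passage injected into mice, for a method in which genomic DNA and RNA of a single cell are both sequenced. Both groups are therefore cells of the same genotype and treatment, split by the measured Bnip3 level alone. With 1 culture the cells are not replicates. No p-value is given, each SD is a spread over cells, and every statement concerns these cells of this culture.

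Bnip3 is a BH3-only protein of the outer mitochondrial membrane that binds LC3-family proteins and so marks mitochondria for mitophagy, the selective removal of mitochondria by autophagy. Its gene is a long-known target of hypoxia-inducible factor 1 (HIF-1). When oxygen is low, prolyl hydroxylases no longer mark the HIF alpha subunits for degradation by the VHL ubiquitin ligase, and HIF then raises genes of glucose uptake, glycolysis, lactate export and pyruvate diversion from mitochondria. Solid pancreatic tumours are known for low oxygen, whereas an adherent culture grows in air.

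HIF binds a short core sequence, ACGTG or GCGTG. The RefSeq windows holding the 250 bases before the transcription start are shown for Bnip3 and for 6 glycolytic and hypoxia target genes described below. Each of the 6 met the rule for a higher level in the Bnip3-high cells. Each also had the high cell above in at least 85% of high-low cell pairs, a cut chosen after seeing the data. The rule alone called 8 hypoxia targets and 3 glycolysis genes higher, and the called genes under that cut are not shown. Letters run 5′ to 3′ on the gene's own strand of GRCm38.p6, and capitals mark every ACGTG or GCGTG on either strand (read as CACGT or CACGC on the other strand), with overlapping matches merged into 1 run of capitals. The count table was made for another build, mm9, and windows were matched to it by gene symbol.
Bnip3 (chr7:138909507-138909756, - strand): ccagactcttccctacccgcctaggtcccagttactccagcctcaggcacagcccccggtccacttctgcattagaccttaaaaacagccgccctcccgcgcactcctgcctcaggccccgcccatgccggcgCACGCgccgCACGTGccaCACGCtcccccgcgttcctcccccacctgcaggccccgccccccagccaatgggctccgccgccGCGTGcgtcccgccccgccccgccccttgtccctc
Pfkp (chr13:6648772-6649021, - strand): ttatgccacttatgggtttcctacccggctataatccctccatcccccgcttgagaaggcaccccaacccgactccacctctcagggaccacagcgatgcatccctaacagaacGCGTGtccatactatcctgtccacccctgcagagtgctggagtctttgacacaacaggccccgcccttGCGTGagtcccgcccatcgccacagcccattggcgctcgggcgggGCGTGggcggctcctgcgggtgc
Pgk1 (chrX:106186850-106187099, + strand): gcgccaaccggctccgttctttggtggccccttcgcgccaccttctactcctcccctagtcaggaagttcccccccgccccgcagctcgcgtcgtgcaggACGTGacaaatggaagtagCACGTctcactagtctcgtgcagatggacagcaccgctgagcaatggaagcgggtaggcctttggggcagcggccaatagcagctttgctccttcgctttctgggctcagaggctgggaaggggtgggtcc
Aldoc (chr11:78322823-78323072, + strand): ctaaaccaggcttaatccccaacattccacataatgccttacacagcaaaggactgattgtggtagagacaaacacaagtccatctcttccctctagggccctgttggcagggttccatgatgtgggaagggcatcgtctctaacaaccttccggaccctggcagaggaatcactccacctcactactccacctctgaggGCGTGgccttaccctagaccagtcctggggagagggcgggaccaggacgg
Fam162a (chr16:36071562-36071811, - strand): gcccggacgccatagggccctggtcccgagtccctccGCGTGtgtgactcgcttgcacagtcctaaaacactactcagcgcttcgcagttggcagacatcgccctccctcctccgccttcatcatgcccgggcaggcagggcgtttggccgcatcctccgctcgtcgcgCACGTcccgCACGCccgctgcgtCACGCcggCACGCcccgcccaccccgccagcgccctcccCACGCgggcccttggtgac
Ankrd37 (chr8:45999851-46000100, - strand): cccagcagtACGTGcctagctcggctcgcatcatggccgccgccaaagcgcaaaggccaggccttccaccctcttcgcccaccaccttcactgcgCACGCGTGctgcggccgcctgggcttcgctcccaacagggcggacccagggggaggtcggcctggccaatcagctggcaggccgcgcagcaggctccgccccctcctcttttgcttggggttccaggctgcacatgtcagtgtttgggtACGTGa
Pdk1 (chr2:71872974-71873223, + strand): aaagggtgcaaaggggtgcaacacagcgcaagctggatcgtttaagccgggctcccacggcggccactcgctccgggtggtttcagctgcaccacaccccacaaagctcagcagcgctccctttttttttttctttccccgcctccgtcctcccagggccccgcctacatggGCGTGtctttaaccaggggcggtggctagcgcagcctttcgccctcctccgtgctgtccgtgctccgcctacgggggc

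The Bnip3 window held 5 matches in 4 runs, of which CACGTG reads as a match on both strands. Fam162a had 6 matches, Ankrd37 had 4, Pfkp had 3, Pgk1 had 2, and Aldoc and Pdk1 had 1 each. Such short words are common. At least 1 match was present in 38.6% of all 27025 windows and in 56.9% of the 9197 windows of genes tested here. The share was 62.9% for the genes higher in Bnip3-high cells (122 of 194 with a window) and 61.4% for the genes lower in them (70 of 114). It was 76.7% for the hypoxia target list (23 of 30) and 64.7% for the glycolysis list (11 of 17). A match is a description of the letters and not a bound site.

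Bnip3 CPM ran from 255 to 2285 in the 12 high cells, with a median of 395. It ran from 0 to 36.5 in the 12 low cells, with a median of 1.25, and from 45.2 to 255 in the 26 between, with a median of 109. On the log2(CPM + 1) scale the means were 8.90 ± 0.96 (SD, n = 12) and 2.16 ± 2.38 (SD, n = 12). The ranking has no gap at its upper cut, where the last high cell had 255.2 CPM and the next cell 254.7 CPM, and a small one at its lower cut, between 45.2 and 36.5 CPM. In 5 low cells Bnip3 was listed at 0. These cells had between 4165712 and 10178558 gene counts, so that 3 counts, the limit that a count of 0 allows, correspond to 0.295 to 0.72 CPM. That limit covers counting error only.

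**Figure D1:**
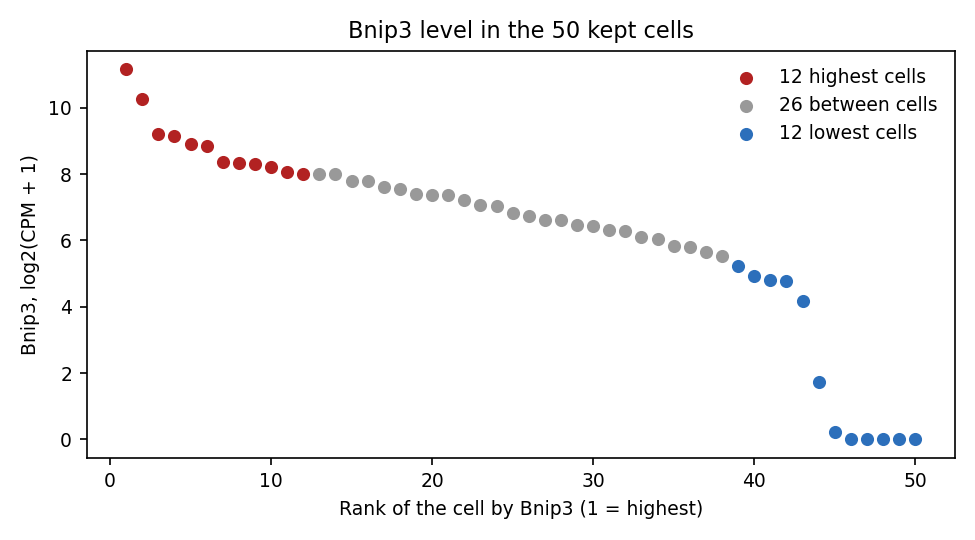
Bnip3 CPM (log axis of CPM + 1) of the 50 kept cells in order of rank, coloured by group. The 12 high cells lie between 255 and 2285 CPM, the 12 low cells at or under 36.5 CPM, and the cells at the upper cut differ by less than 1 CPM.

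Depth was similar in the groups. High cells had a median of 7160421 gene counts (4629641 to 12868806) and low cells 7251965 (2153895 to 10178558). Detected genes had a median of 9129.5 (6935 to 11068) against 8561.5 (6832 to 10308), and the spike-in share one of 0.568% (0.221% to 1.60%) against 0.818% (0.390% to 1.83%). The numbers in the sample labels, whose meaning is not given, had a median of 36.5 (2 to 65) in high cells, 22 (5 to 54) in low cells and 64 in the cells between. The part of these differences in the results was not tested beyond the values given with them.

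Cell identity was alike at both ends. The 5 pancreatic tumour epithelium markers (Krt7, Krt8, Krt18, Krt19 and Cdh1) were above 0 in all 24 cells, and their summed level was 4730 to 23456 CPM (median 7364) in high cells and 6408 to 15140 CPM (median 8344) in low cells. Of 7 immune markers 4 were at 0 in all 50 kept cells, as were 4 of 7 fibroblast, 4 of 5 endothelial, 2 of 4 acinar and 1 of 4 red cell markers. Ptprc, the pan-leukocyte marker, and Pecam1, an endothelial marker, were at 0 in all 24 cells, as was Col1a2 of fibroblasts. The summed medians of all these lists were at or under 1.39 CPM in both groups. The highest sum in any of these cells was 215 CPM, for the endothelial list in a low cell, whose only marker above 0 in any kept cell is Egfl7. The acinar list had summed medians of 1.39 CPM in high and 0 in low cells, with Prss2 above 0 in 6 and 1 cells.

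3 of the high cells stood apart from the rest. Libraries 19, 17 and 11, which rank 1, 2 and 5 by Bnip3, were the only ones of the 50 whose scores for S phase genes and for G2/M genes were both below -1 (a score is the mean z value of a list over the kept cells). S phase genes listed at 0 numbered 20, 23 and 15 of 36 in them, and G2/M genes listed at 0 numbered 25, 27 and 18 of 40. In the other 9 high cells these numbers were 0 to 5 and 0 to 2, and in the low cells 0 to 17 and 0 to 15. Top2a, the topoisomerase of dividing cells, was at 0 in all 3, against a median of 233 CPM in the other 47. They had 7436, 6935 and 8568 detected genes. Spike-ins took 1.51%, 1.60% and 0.769% of their counts, against a median of 0.568% in the high group. The part of this in the genes listed at 0 was not tested. The counts of calls in the lists below are also given without them, a comparison chosen after seeing the data.

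Across the 12011 other genes tested, those above 0 in at least 10 kept cells, the difference is the mean log2(CPM + 1) of the high cells minus that of the low cells. Each gene also has the share of all high-low cell pairs in which the high cell is above, ties counting as 0.5. A gene was called when the difference was at least 1 in size and at least 75% of pairs lay in that direction. By this rule 240 genes (2.00%) were called higher in Bnip3-high cells and 151 (1.26%) lower. With scaling to the spike-ins in place of total gene counts the numbers were 580 and 11, and the median difference of all genes moved from 0.05 to 0.42. Of the 151 genes called lower, 10 were also called lower on the spike-in scale. A lost call there need not be a lost difference, but genes differed in this. Ccnd2, described below, was not called on that scale, while its difference stayed at or below -1.317 in all 14 other settings. Eif2b3 and Ecsit also lost their calls there and stayed at or below -1.261 and -1.388. Nasp, Nhp2 and Vps36 lost theirs too, and their smallest differences over the 14 settings were -0.56, -0.58 and -0.63. By the difference alone 13.2% of genes were higher by at least 1 and 6.84% lower. Without the 3 cells that stood apart they were 490 (4.08%) and 81 (0.674%), of which 197 and 55 were among the genes called with all 24 cells. No gene separated the groups completely (0 of 12011, 0.00%).

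Of 50 listed HIF targets 41 passed the filter, and of these 8 were called higher in the Bnip3-high cells and 1 lower, against 2.00% and 1.26% of all genes. The list median difference was 0.83, against 0.05 over all genes, and 35 of the 41 differences were above 0, as were 54.1% of all. The 9 others, which include Slc2a3 and Adm, were above 0 in too few cells. With the 3 cells that stood apart left out, 8 were called higher and 1 lower, with a median of 0.92, while the median of all genes was 0.16. These were not the same 8, since Fam162a and Jmjd6 were no longer called and Stc2 (2.06, 75.9% of pairs) and Pfkfb3 (1.04, 78.7% of pairs) were. With the 25 highest against the 25 lowest cells none of the 41 was called, and the median was 0.43. Bnip3 belongs to this target family by prior knowledge and the list was drawn up with earlier results known, so the list gives no independent support.

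Ankrd37, an ankyrin-repeat protein and a sensitive HIF-1 target, had the largest difference of the list. It ranged from 0 to 152 CPM in high cells (median 29.4) and from 0 to 26.6 CPM in low cells (median 0). It was above 0 in 10 of 12 high cells (83.3%, exact 95% interval 51.6% to 97.9%) and in 2 of 12 low cells (16.7%, 2.09% to 48.4%). The difference was 3.95, from 4.40 ± 2.25 to 0.44 ± 1.38 (SD, n = 12 in each), with the high cell above in 88.2% of pairs. Most high cells thus lay above nearly every low cell, with overlap from 0 up to 26.6 CPM. These intervals cover the sampling of cells alone.

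Pdk1 encodes the kinase that switches off pyruvate dehydrogenase and keeps pyruvate out of mitochondria. Its level was 15.8 to 149 CPM in high cells (median 107) and 0 to 79.9 CPM in low cells (median 24.1). The groups overlapped, but the high cell was above in 86.8% of pairs, and the difference was 2.61 (6.30 ± 0.97 against 3.68 ± 2.50). Slc16a3, which encodes the lactate exporter MCT4, ranged from 0 to 219 CPM (median 25.4) against 0 to 151 CPM (median 1.13), a difference of 2.82 with 81.9% of pairs. Gbe1, the glycogen branching enzyme, was above 0 in 11 high and 2 low cells, with a difference of 3.13. Both genes overlapped between the groups, and the low cells were mostly at or near 0.

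Egln3, a HIF prolyl hydroxylase that is itself induced by HIF, had 0 to 194 CPM in high cells (median 86.2) and 0 to 82.9 CPM in low cells (median 7.39), a difference of 2.69. Fam162a, a mitochondrial protein, was above 0 in all 24 cells. It ran from 117 to 965 CPM (median 424) against 97.6 to 324 CPM (median 188), a difference of 1.18 with 88.9% of pairs. It was not called without the 3 cells that stood apart (0.93, 85.2% of pairs). Ak4, a mitochondrial adenylate kinase, was called at low levels, above 0 in 7 high cells and 1 low cell, with a difference of 1.78. Ak4 kept its call in 7 of the 13 other settings in which it was tested, and lost it with a pseudocount of 10 CPM, with 8 or 25 cells a group, with detected genes or cycle scores regressed out, and with levels centred within label-number blocks. Jmjd6 lay at the edge of the rule, with 75.7% of pairs and a difference of 2.27, and lost its call when any 1 of libraries 17, 42, 11, 2, 12, 14, 18, 36, 35 and 6 was left out. Bhlhe40, a transcriptional repressor of the list, went the other way, with medians of 36.2 CPM in high and 111 CPM in low cells and a difference of -1.76.

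**Figure D2:**
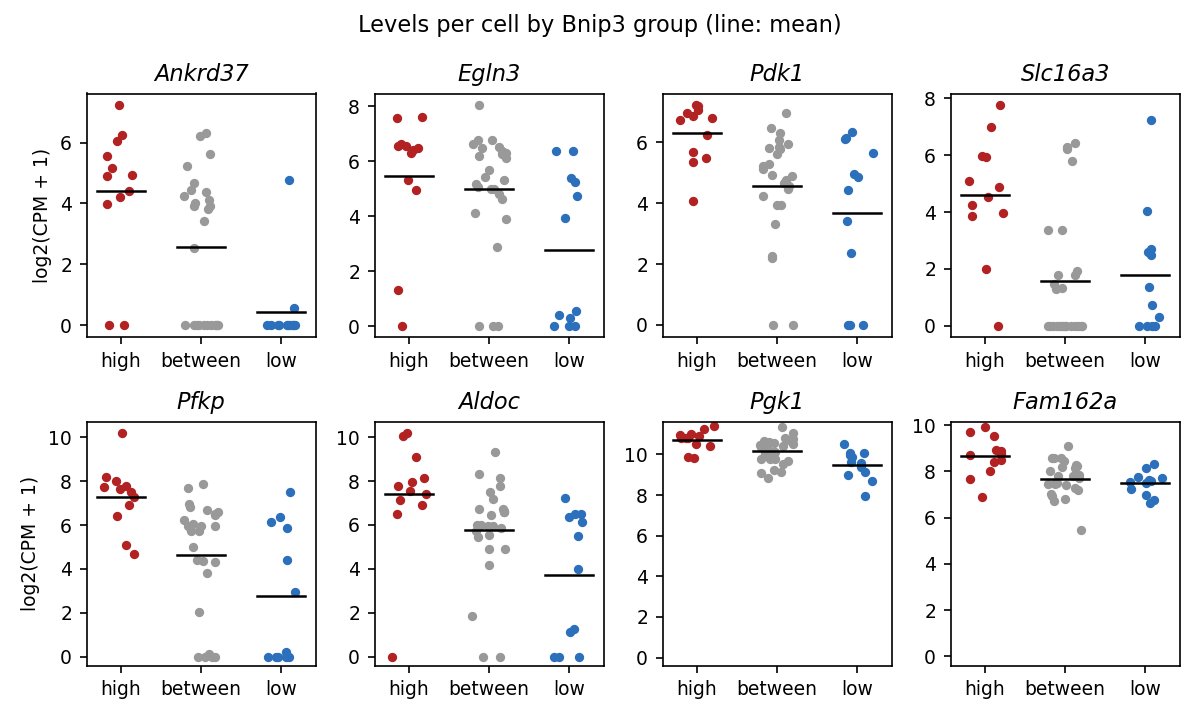
Level of 8 genes in each cell, as log2(CPM + 1), in high, between and low cells, with 1 point per cell and a line at the mean. The high cells of Pfkp, Pgk1, Fam162a and Ankrd37 sit mostly above the low cells, the groups overlap for every gene, and the cells between hold intermediate medians for Ankrd37, Pfkp, Aldoc and Pgk1.

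Other well-known targets did not meet the rule. Bnip3l, the paralogue of Bnip3 and likewise a mitophagy receptor, ran from 170 to 737 CPM in high cells (median 341) and from 52.8 to 359 CPM in low cells (median 170). Its difference was 0.97 with 83.3% of pairs, just under the size of 1. It met the rule when any 1 of libraries 26, 37, 16, 25, 33, 18, 5, 36 and 35 was left out. Vegfa, the angiogenic growth factor, had a difference of 1.34 but only 68.1% of pairs, and the glucose transporter Slc2a1 1.05 with 63.9%. Car9, a cell-surface carbonic anhydrase, was near 0 in both groups (medians of 0.423 and 0 CPM). The lipid droplet gene Hilpda and the lipoprotein lipase inhibitor Angptl4 had differences of -1.35 and -1.07, with 36.8% and 40.3% of pairs. Among targets with positive differences, Higd1a (0.81), Egln1 (0.92), Kdm3a (1.09), P4ha2 (1.49), Stc2 (1.45), Gys1 (2.18), Narf (2.24) and Vldlr (2.83) were not called with all 24 cells.

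Of 13 genes of the oxygen-sensing machinery itself none was called, 9 differences were above 0, and the median was 0.26. Other settings made calls. TMM and median-of-ratios scaling gave 1 called higher each, spike-in scaling gave 2, and regressing out the cycle scores gave 1 called lower. Without the 3 cells that stood apart 1 was called higher, Cul2 (1.96, 78.7% of pairs), the cullin of the VHL ligase, and the median was 0.59. Hif1a had a difference of 0.71 with 64.6% of pairs and medians of 130 and 88.4 CPM. Epas1, which encodes HIF-2 alpha, had a difference of 1.55 with 74.3% of pairs, and was called when any 1 of 10 libraries was left out (17, 24, 11, 26, 37, 25, 5, 36, 38 or 6). Arnt, the beta subunit of the HIF dimer, had 0.94 with 58.7% of pairs, and Vhl 0.08 with 46.2%. HIF is mainly regulated as a protein, which RNA levels do not measure.

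Of 18 listed glycolysis genes 17 were tested, 3 were called higher in the Bnip3-high cells and none lower, 14 differences were above 0, and the median was 0.57. Going by pairs alone, 6 of the 17 had the high cell above in at least 85% of pairs, as did 27 of all 12011 genes (0.225%), and none was at or under 15%, as 35 of all genes were (0.291%). This stricter reading of pairs was chosen after seeing the data. With the 25 highest against the 25 lowest cells 1 of 17 was called, Aldoc, and the median was 0.32. With the 3 cells that stood apart left out, 4 of 17 were called higher and the median was 0.46. The fourth was the liver isoform of phosphofructokinase, Pfkl, at 1.13, which with all 24 cells had 0.95 with 72.2% of pairs.

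Pfkp, the platelet isoform of phosphofructokinase, which commits sugar to glycolysis, had the largest difference of all called genes with a mean of at least 3. It ran from 25 to 1160 CPM in the high cells (median 188) and from 0 to 178 CPM in the low cells (median 3.49). All 12 high cells and 7 low cells were above 0. The difference was 4.50, from 7.29 ± 1.44 to 2.79 ± 3.07, with 92.4% of pairs. Aldoc, an aldolase isoform, had 0 to 1156 CPM (median 202) against 0 to 148 CPM (median 29.9), a difference of 3.67 with 89.9% of pairs. The highest cells of both genes were in the high group. The groups overlapped, up to 178 CPM for Pfkp and 148 CPM for Aldoc, below the medians of the high cells.

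Pgk1, phosphoglycerate kinase, is expressed in every cell and shows the shift without zeros. Its level was 896 to 2745 CPM in high cells (median 1814) and 246 to 1447 CPM in low cells (median 774). The difference was 1.22 (10.71 ± 0.49 against 9.49 ± 0.71, SD, n = 12 in each), with 91.7% of pairs. Pgk1 was not called with 8 or with 25 cells a group, and its smallest difference over the 14 other settings was 0.69. Tpi1, triosephosphate isomerase, ran from 1354 to 5608 CPM (median 2364) against 852 to 2375 CPM (median 1366). Its difference of 0.94 with 89.6% of pairs was just under the rule's size, and it was called when any 1 of libraries 26, 37, 25 and 32 was left out. Pgam1 and Aldoa, with differences of 0.65 and 0.68, also had the high cell above in 89.6% and 88.2% of pairs. Pgam1 and Aldoa thus differed by small amounts in most cell pairs.

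Among abundant genes only the direction of a higher level in the high cells was counted. Of the 637 genes with a mean log2 level of at least 8 over the kept cells, 5 (0.785%) had the high cell above in at least 85% of pairs. These 5 were Pgk1, Tpi1, Pgam1, Aldoa and Mif, a cytokine gene and HIF target with a difference of 0.69 and 85.4% of pairs. Pgk1, Tpi1, Pgam1 and Aldoa were described above, so they add no separate support. Abundant genes with the high cell below in most pairs were not counted, and Set and Nme1, described under other observations, went in that direction. Ldha, lactate dehydrogenase, had 0.57 with 79.9% of pairs, and Gpi1 0.59 with 78.5%. Pkm (0.48), Eno1 (0.42) and Gapdh (0.35) had 67.4%, 68.8% and 68.1% of pairs, and the hexokinase genes Hk2 and Hk1 0.13 and 0.49 with 51.4% and 50.7%. The 3 glycolysis genes with no positive difference were Pfkm (-0.02), Eno2 (-0.03) and Eno3 (-0.52). Many of these genes have near-identical processed copies in the mouse genome. How the authors' counting shared reads among such copies is not given, so the levels of Gapdh, Pgk1, Tpi1, Aldoa, Pgam1, Ldha, Pkm, Eno1 and Mif are uncertain to that extent.

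**Figure D3:**
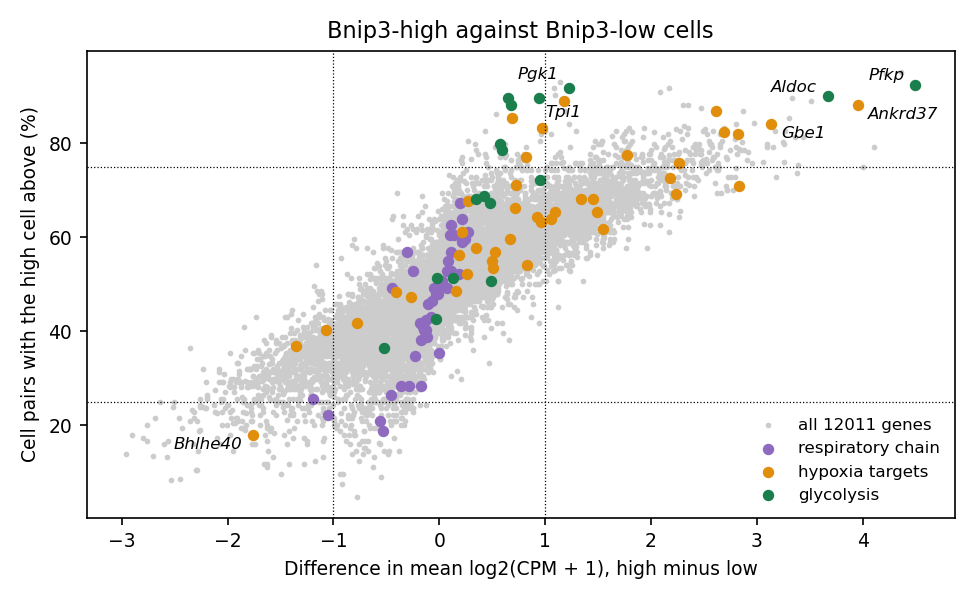
Each tested gene by its difference (high minus low, log2 scale) and the share of the high-low cell pairs with the high cell above, with glycolysis, hypoxia target and respiratory chain genes coloured and dotted lines at the limits of the call rule. Pfkp, Pgk1, Aldoc, Ankrd37 and Fam162a lie in the called corner, and Tpi1, Pgam1, Aldoa and Mif have high pair shares at differences under 1.

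The cells between the groups were a check on cells that the split did not use. Spearman's rank correlation of Bnip3 with the glycolysis score was 0.70 over the 50 kept cells and 0.40 over the 26 between. For the hypoxia target score it was 0.64 over 50 cells and 0.14 over the 26. All points share 1 culture and 1 chip, and Bnip3 spans a narrower range in the 26. The rank correlation with Bnip3 was above 0 there for 13 of 17 glycolysis genes and 26 of 41 hypoxia targets, and for 5647 of all 12011 genes. Among the genes called higher it was above 0 for 126 of 240 (52.5%), and among those called lower for 75 of 151 (49.7%). Pfkp and Pdk1 had rank correlations of -0.18 and -0.17 in the cells between, whereas Aldoc had 0.39, Aldoa 0.38, Pgam1 0.33 and Pgk1 0.31. Genes called higher thus had a rank correlation above 0 in these cells little more often than all genes did, while 13 of 17 glycolysis genes had one. A high share was not particular to glycolysis. Among lists with no gene called, 18 of 20 ATF4 and amino acid response genes and 16 of 24 mitophagy and autophagy genes had one. Other such lists had low shares, with 5 of 22 immediate early genes and 5 of 18 p53 targets. For genes called lower, following the split would mean a rank correlation below 0. With 75 of 151 above 0, against 5647 of all 12011, they did not follow it more often than all genes did.

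By score, 11 of 12 high cells and 1 of 12 low cells lay above the median of the kept cells for hypoxia targets, and the same numbers held for glycolysis. The 5 genes of highest rank correlation with Bnip3 over the kept cells, among those above 0 in at least 25, were Aldoc (0.62), Pgk1 (0.61), Ift81 (0.59), Tpi1 (0.58) and Aldoa (0.56). Ift81, a protein of the cilium transport machinery, was above 0 in 11 high and 3 low cells. At the other end stood Ppp1r14b (-0.59), Set (-0.59), Nhp2 (-0.56), Cdv3 (-0.55) and Vps36 (-0.52). These cells include both groups, so the values describe the same contrast in another form.

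Of 24 mitophagy and autophagy genes other than Bnip3 none was called, 13 differences were above 0, and the median was 0.32. With TMM or median-of-ratios scaling, with cycle scores regressed out or with levels centred within label-number blocks 1 was called, with 8 cells a group 2, and with spike-in scaling 4, with a median of 0.86. Pink1, the kinase of the parallel mitophagy pathway, had a difference of 1.57 with 72.2% of pairs, and met the rule without any 1 of libraries 19, 17, 37, 16, 44, 38 and 7. The LC3 gene Map1lc3b had 0.55 with 72.9% of pairs. The cargo receptor Sqstm1 had -0.10 with 48.6% of pairs. Leaving out the 3 cells that stood apart gave 2 of the 24 called higher, with a median of 0.42. Of 13 genes of the Bcl2 family, to which Bnip3 is related by its BH3 domain, none was called, and the median was -0.14. That median was 0.38 with spike-in scaling and 0.45 without the 3 cells that stood apart, with 8 of 13 differences above 0 in place of 6. Bcl2l1, an anti-apoptotic member, had 1.27 with 66.7% of pairs and was called with 8 cells a group, and the pro-apoptotic Bax had -0.18 with 43.1%.

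Mitochondrial metabolism genes showed no shared direction that held under every scaling. Of 44 respiratory chain genes 1 was called lower and none higher, 17 differences were above 0, and the median was -0.06. That median was 0.01 with TMM scaling, 0.03 with median-of-ratios scaling and 0.48 with spike-in scaling. Uqcrc1, a subunit of complex III, was the gene called, with medians of 392 CPM in high and 546 CPM in low cells and a difference of -1.05. It was not called without library 19 or without library 32, nor without the 3 cells that stood apart. Of 20 genes of pyruvate dehydrogenase and the citric acid cycle 1 was called, Idh3a, lower by -1.75 at exactly 25% of pairs. It kept its call in 10 of 24 comparisons that left out 1 cell each, and was not called without the 3 cells that stood apart.

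Of 36 S phase genes, which act in DNA replication, 6 were called lower in the high cells and none higher, against 1.26% of all genes called lower. Only 4 differences were above 0, and the median was -1.24. With spike-in scaling 1 was called lower, 10 differences were above 0 and the median was -0.56. With 25 cells a group none was called (median -0.57), and with 8 cells a group 8 were called lower (median -1.50). Nasp, a histone chaperone, ran from 0 to 222 CPM in high cells (median 84.7) and from 50.1 to 392 CPM in low cells (median 239), a difference of -1.63 with 11.1% of pairs. Uhrf1, which maintains DNA methylation at replication, had medians of 33.1 and 129 CPM and a difference of -1.95 with 14.6% of pairs. Mcm3, a subunit of the replicative helicase, had a difference of -2.31 with 22.9% of pairs. Dtl, Cdt1 and Ung completed the 6, and Dtl and Cdt1 lost their calls in 10 and 14 of the 24 comparisons that left out 1 cell each. Without the 3 cells the list median was -0.03, 17 of 36 differences were above 0, and Nasp alone was called lower (-1.06, 13% of pairs). Mcm3 was then at -0.59 and Uhrf1 at -0.80. Since the 3 cells were picked for low scores and all came from the high group, leaving them out raises the S phase level of that group by construction. The median S phase score was 0.02 in the other 9 high cells and 0.46 in the low cells.

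The G2/M list went the other way when these cells were set aside. With all 24 cells 1 of 40 genes was called higher and the median was 0.02. Without the 3 cells 18 of 40 were called higher, against 4.08% of all genes, all 40 differences were above 0, and the median was 1.35. Ndc80, a kinetochore protein, then had a difference of 3.84, the mitotic kinase genes Aurkb and Aurka 3.51 and 3.39, Ube2c 2.43, Top2a 2.35 and Cdk1 1.27. The same choice of cells raises the G2/M level of the high group by construction. By score, 7 of 12 high cells and 2 of 12 low cells lay above the median of the kept cells for G2/M genes, and 3 and 7 did for S phase genes. In the cells between, Bnip3 had a rank correlation of -0.04 with the S phase score and -0.08 with the G2/M score.

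**Figure D4:**
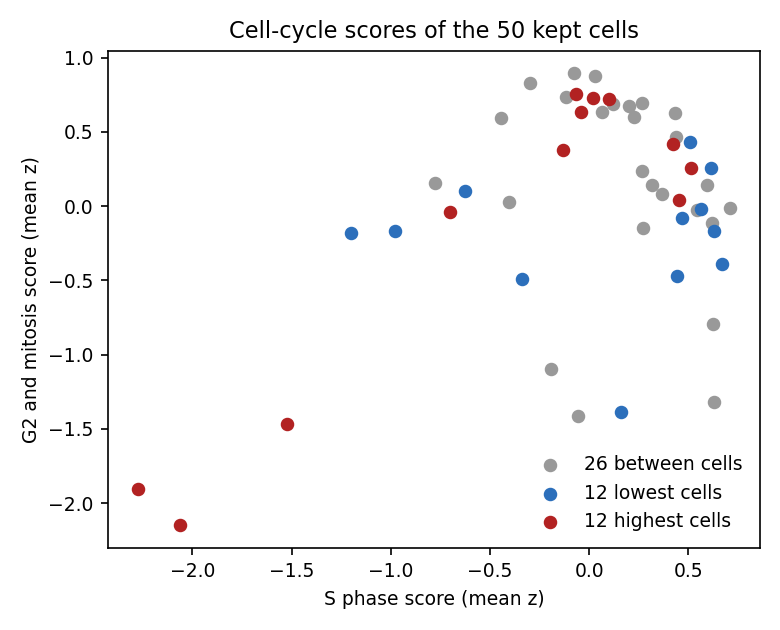
S phase score against G2/M score (mean z values) of the 50 kept cells, coloured by group. Of the high cells 3 lie below -1 on both axes, where no other cell does, and the other 9 have G2/M scores from -0.04 to 0.76.

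Ccnd2, which encodes the cell cycle regulator cyclin D2, had the most negative difference of all called genes with a mean of at least 3. It ran from 0.0777 to 462 CPM in high cells (median 121) and from 145 to 1815 CPM in low cells (median 354), a difference of -2.96 with 13.9% of pairs. It was also called without the 3 cells (17.6% of pairs). Cdkn1b, the CDK inhibitor p27, was called higher at low levels, with medians of 11.4 and 2.95 CPM and a difference of 1.47 with 80.6% of pairs. It was the only call among 14 FOXO target genes, with and without the 3 cells.

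Of 24 sterol synthesis genes 3 were called higher and none lower, 21 differences were above 0, and the median was 0.71. Leaving out the 3 cells that stood apart gave 3 called, with a median of 0.98. Msmo1, a sterol demethylation enzyme, ran from 365 to 2225 CPM in high cells (median 1184) and from 20.4 to 1452 CPM in low cells (median 483), a difference of 1.53 with 80.6% of pairs. Fdft1, squalene synthase, had medians of 493 and 187 CPM and a difference of 1.80 with 79.9% of pairs. The groups overlapped for both. Sqle, squalene epoxidase, had 0.14 with 59.7% of pairs. In the 26 cells between, rank correlation with Bnip3 was above 0 for 22 of 24 genes of the list, and for 5647 of all 12011 genes. The rank correlation of Bnip3 with the sterol score was 0.24 there. None of the 24 was called when levels were centred within blocks of 12 label numbers (median 0.47).

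**Figure D5:**
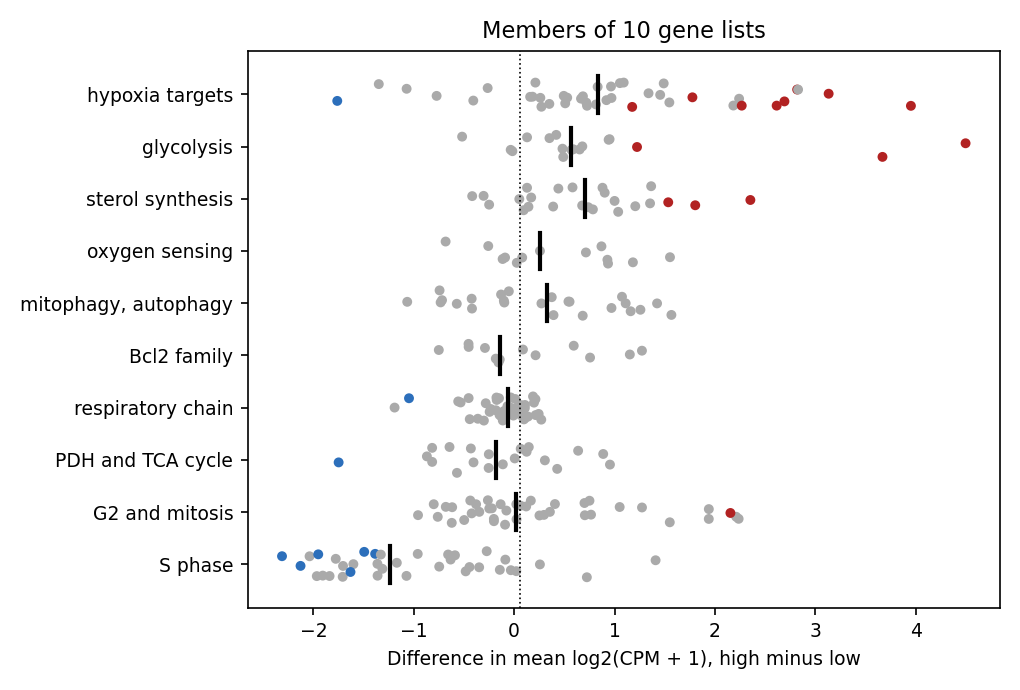
Differences (high minus low, log2 scale) of the tested genes of each list shown, with the list median and the median of all genes. Hypoxia target, glycolysis and sterol medians lie at 0.83, 0.57 and 0.71 and the S phase median at -1.24, while the median of all genes is 0.05.

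With all 24 cells, none of 20 ATF4 and amino acid response genes (median 0.20), 19 endoplasmic reticulum chaperone genes (0.01), 18 p53 targets (0.08) or 22 immediate early genes (0.15) was called. Of 19 NRF2 targets 1 was called, the quinone reductase gene Nqo1, with a difference of 3.06 and 76% of pairs. It lost its call in 12 of the 24 comparisons that left out 1 cell each. Of 16 epithelial genes Cldn3, a tight junction claudin, was called higher (1.09, 77.1% of pairs) and not without library 24, 33 or 5. None of 19 mesenchymal genes was called (median 0.09). Leaving out the 3 cells that stood apart gave 1 call higher among the ATF4 genes (Atf5, 1.13), 1 among the chaperone genes (Pdia4, 1.38) and 1 lower among the immediate early genes (Klf4, -1.68). The medians of these lists were then 0.62, 0.08 and 0.06, and that of the p53 targets 0.46. Nqo1 was not called, Cldn3 was, and no p53 target or mesenchymal gene was. With all 24 cells, 1 of 14 YAP targets was called higher, Amotl2, and the list median was 0.60. Amotl2 kept its call in 9 of the 24 comparisons that left out 1 cell each. Of 17 secreted and other tumour genes 2 were called higher, Ly6a and Spp1, and the list median was 0.58. Without the 3 cells, 2 YAP targets (median 0.59) and 5 secreted and other tumour genes (median 0.63) were called higher.

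Among all called genes with a mean of at least 3, list members included, Pfkp and Aldoc were among the largest positive differences. The others included Ly6a (4.11), Rab3gap2 (3.51), Fam118a (3.39), Them4 (3.36), Cep290 (3.33), Selenbp1 (3.31), Aacs (3.26), Bin3 (3.26), Tmem68 (3.26) and Dcaf11 (3.17). Ly6a, which encodes the surface antigen Sca-1, ran from 107 to 2956 CPM in high cells (median 868) and from 0 to 1241 CPM in low cells (median 208). Its median in the cells between was 1379 CPM, above that of the high cells. Aacs, acetoacetyl-CoA synthetase, feeds ketone carbon into lipid synthesis, and Cep290 is a protein of the ciliary transition zone. Fam118a and Tmem68 lost their calls in 12 and 9 of the 24 comparisons that left out 1 cell each. Spp1, which encodes the secreted protein osteopontin, was also called, with medians of 15574 and 4594 CPM and a difference of 2.47. Neither Ly6a nor Spp1 was called when levels were centred within blocks of 12 label numbers.

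The largest negative differences, after Ccnd2, were those of Eif2b3 (-2.80), Phtf1 (-2.76), Gpr180 (-2.76), Snhg4 (-2.70), BC023829 (-2.63), Ecsit (-2.60), Rif1 (-2.57), Cpne1 (-2.56), Cdv3 (-2.54), Brms1l (-2.51) and Cdca7 (-2.46). Eif2b3 is a subunit of the exchange factor that recharges the translation initiator eIF2, and Rif1 regulates replication timing. BC023829 and Brms1l lost their calls in 14 and 6 of the 24 comparisons that left out 1 cell each. Cdv3 was the steadiest of these by cell pairs. It ran from 0.131 to 46.4 CPM in high cells (median 25.5) and from 20.1 to 252 CPM in low cells (median 92.7), with 8.33% of pairs, and it was called without the 3 cells as well. Nhp2, a protein of the snoRNPs that modify ribosomal RNA, had medians of 269 and 407 CPM with 9.72% of pairs and a difference of -1.50. Without library 17 its difference was -0.84 and it was not called. Ppp1r14b, an inhibitor of protein phosphatase 1, had the lowest pair share of the genes in this paragraph at 4.86%, with 129 to 232 CPM in high cells and 213 to 505 CPM in low cells, and a difference of -0.78.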

How the data were processed

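Estimated counts for 62 single-cell libraries were deposited, 1 row a gene symbol. The submitters' processing notes name kallisto and mm9. Its version, the annotation used and the step from transcripts to genes were not given in the sources used here, so gene names were taken as in the table. Among 19112, 17942 matched a known symbol as given, 1092 matched after names altered by table software were restored, and 78 kept the table's name. The 65 ERCC rows were used for the spike-in share and for the alternative with spike-in scaling. Counts were scaled to CPM over gene rows and used unrounded as log2(CPM + 1). Lists of program genes and markers, the members and the rules were chosen with earlier results of these data known. The score limit of -1, the reading by 85% of pairs and a list of ribosomal protein genes were chosen after seeing the data. The rule for named genes took the 12 largest called differences in each direction with a mean of at least 3, all hypoxia target, oxygen sensing and glycolysis genes, Bnip3l, the 2 largest absolute differences of each other list, and the 5 highest and 5 lowest rank correlation with Bnip3; any other gene was named after its values were seen. Not every gene the rule took is named: for the lists, the rest stand in the counts or medians alone. No doublet caller was run, and no 2 libraries held identical values. Shares of cells carry exact Clopper-Pearson 95% intervals. Alternatives covered pseudocount, filter, scaling, thinning to 2000000 counts, group size, covariates and leaving out each cell. Scripts ran in Python 3.11.15 with NumPy 2.4.6, pandas 2.3.3, SciPy 1.17.1 and Matplotlib 3.10.9, and TMM factors came from edgeR 4.0.16 in R 4.3.3. The computations were tested on simulated data. Some single-gene results are not reported here. The promoter windows are from RefSeq (GRCm38.p6).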

Additional observations from a re-analysis of the deposited data

Results flagged for a closer look

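Bnip3 was also measured in the 12 libraries left out for their spike-in share, which no comparison uses. It was above 0 in 3 of them, and the highest level there was 51.4 CPM, above the highest of the 12 low cells (36.5 CPM) and within the range of the cells between the groups (45.2 to 255 CPM). These libraries held 112196 to 1133747 gene counts, and spike-ins took 22.3% to 97.2% of their counts.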

How the results depend on the processing

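As a percentage of the genes tested, those called higher and lower, 2.00% and 1.26%, became 1.199% and 0.783% with a pseudocount of 10 CPM, 4.83% and 0.0916% with spike-in scaling (580 and 11 genes), 3.80% and 3.40% for the 8 highest against the 8 lowest cells (457 and 408), and 0.0500% and 0.0167% for the 25 highest against the 25 lowest (6 and 2). They became 13.2% and 6.84% by a difference of 1 alone and 0.183% and 0.158% by that difference with 85% of pairs. In alternatives chosen after seeing the data they became 0.225% and 0.291% by 85% of pairs at any difference, and 4.08% and 0.674% without the 3 cells low in both cell-cycle scores. With detected genes regressed out they were 1.36% and 2.88%. TMM scaling called 269 and 123 genes and median-of-ratios scaling 275 and 116. Leaving out 1 cell at a time gave 216 to 294 genes higher and 116 to 193 lower. The median of the hypoxia target list, 0.83, was 0.43 to 1.35 over the settings run, with 1.35 under spike-in scaling, and 0.73 to 0.94 with 1 cell left out. Aldoc kept its call under all 14 settings run for single genes, and Ankrd37, Pfkp, Pdk1, Gbe1 and Slc16a3 under 13, losing it with 25 against 25. The FOXO target median, 0.56, was -0.11 for 8 against 8, and the cause was not tested. Cdt1, called lower by -1.49, was at 0.31 with both cell-cycle scores regressed out. Cdt1 is a member of the S phase list that makes 1 of these scores, so that setting removes part of its own level by construction. No paired analysis was possible because all cells form 1 group of 1 culture. With 12 cells in each group and many genes at 0 in some cells, small differences in genes of low level were not detectable.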

Other observations

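Ribosomal protein genes and their close relatives by name, a list added after seeing the data, had slightly lower CPM in the Bnip3-high cells without meeting the size rule. Of 82 tested none was called, 11 differences were above 0, against 54.1% of all genes, and the median was -0.18. With spike-in scaling the median was 0.35, under the 0.42 of all genes, and 81 of 82 differences were above 0. In the 26 cells between the groups rank correlation with Bnip3 was above 0 for 8 of the 82, against 5647 of all 12011 genes, with a median rank correlation of -0.26. Set (-0.94, 9.72% of pairs), a histone chaperone, and Nme1 (-0.55, 9.03%), a nucleoside diphosphate kinase, likewise had high cells below low cells in most pairs.

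Among genes outside the lists that were singled out after their values were seen, Pcmtd2 had the high cell above in 95.1% of pairs. It was above 0 in all 12 high cells (6.36 to 68.3 CPM) and in 2 of 12 low cells, with a difference of 4.36, and its rank correlation with Bnip3 in the 26 cells between was -0.004. Prdx5, a peroxiredoxin found in mitochondria and peroxisomes, ran from 114 to 404 CPM in high cells and from 27.8 to 159 CPM in low cells, with 93.1% of pairs and a difference of 1.15. Pgm2, an enzyme of sugar phosphate conversion, had medians of 172 and 55.8 CPM with 91% of pairs.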
